A study of Homo sapiens with 6 samples.

Results

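VIM, FN1, ZEB1, ZEB2, SNAI1, SNAI2, TWIST1, TWIST2, FOXQ1 and S100A4 are 10 human genes tied to the epithelial-mesenchymal transition (EMT): 7 transcription factors of the ZEB, SNAIL, TWIST and forkhead families, and 3 products that mark mesenchymal cells. They were followed in RNA-seq of UWB1.289, an established ovarian carcinoma line that carries a BRCA1 mutation. The genes were listed by name, and VIM and FOXQ1 were selected on their higher level after depletion of HBO1. Their values in that comparison are therefore given as a description without a test, while the other 8 were not chosen by their values. All 10 were found among 26967 named genes, and all 10 had a mean of at least 10 normalized counts over the 6 libraries, the filter that kept 15173 genes for testing.

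The groups were 3 libraries of cells transduced with a control short hairpin RNA (shCTRL) and 3 of cells transduced with a hairpin against HBO1 (shHBO1). HBO1, encoded by KAT7, is an acetyltransferase of histones H3 and H4. All cells were transduced in the presence of polybrene at 10 µg/mL, and puromycin at 1 to 3 µg/mL was added after 96 h to keep transduced cells. Both groups thus share viral transduction and drug selection. Hairpin number, strandedness and the sharing of reads between transcripts are not stated in the sources used here. The libraries carry the numbers 1 to 3 in each group. Nothing in the labels says that they came from separate cultures, so the p-values reflect spread among these particular libraries, and part or all of that spread may be technical.

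In EMT, epithelial cells give up adherens and tight junctions, gain vimentin filaments and fibronectin matrix, and become motile. SNAIL and ZEB zinc finger proteins bind E-box sequences and repress junction genes such as CDH1, and the basic helix-loop-helix proteins TWIST1 and TWIST2 also bind E-boxes. Much of the control of SNAIL and ZEB factors is exerted on the mRNA or the protein, so that mRNA is a partial readout. Ovarian carcinoma cells often hold epithelial and mesenchymal markers together.

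Promoter sequences in RefSeq (GRCh38.p14, 250 bases before to 50 after each start) matched 7 of the 10 genes: VIM, FN1, ZEB1, ZEB2, TWIST2, FOXQ1 and S100A4. The window is shown for VIM and FOXQ1, the genes chosen for their higher level, and for S100A4, whose window holds an E-box of the kind that ZEB and SNAIL proteins bind. They lie at chr10:17227991-17228290 on the plus strand (VIM), chr6:1311848-1312147 on the plus strand (FOXQ1) and chr1:153545757-153546056 on the minus strand (S100A4). Capitals mark a GC box (GGGCGG or CCGCCC) in VIM and FOXQ1, and the E-box (CAGGTG or CACCTG) in S100A4.
VIM promoter: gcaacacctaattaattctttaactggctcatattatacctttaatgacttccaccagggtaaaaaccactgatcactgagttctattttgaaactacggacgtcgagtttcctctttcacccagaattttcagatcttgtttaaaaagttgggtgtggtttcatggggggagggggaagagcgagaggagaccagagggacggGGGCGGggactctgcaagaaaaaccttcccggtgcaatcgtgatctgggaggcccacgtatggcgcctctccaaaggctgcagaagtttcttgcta
FOXQ1 promoter: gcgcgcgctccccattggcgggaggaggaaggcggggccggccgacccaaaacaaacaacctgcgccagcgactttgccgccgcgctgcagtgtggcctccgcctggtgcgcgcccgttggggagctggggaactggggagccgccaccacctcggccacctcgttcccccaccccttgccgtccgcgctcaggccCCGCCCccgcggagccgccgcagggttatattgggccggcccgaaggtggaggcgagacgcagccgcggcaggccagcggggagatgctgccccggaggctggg
S100A4 promoter: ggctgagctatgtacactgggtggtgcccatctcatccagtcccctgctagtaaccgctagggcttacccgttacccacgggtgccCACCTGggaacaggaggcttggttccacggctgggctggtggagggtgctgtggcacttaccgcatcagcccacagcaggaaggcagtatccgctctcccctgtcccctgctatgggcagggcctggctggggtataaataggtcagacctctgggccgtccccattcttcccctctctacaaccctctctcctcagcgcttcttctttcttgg
The GC box starts at -46 in VIM and at -54 in FOXQ1, counted from the start of transcription, and 45.0% of 35116 promoter windows hold such a box on either strand. The S100A4 E-box starts at -164 and a TATA box (TATAAA or TTTATA) at -31, motifs found in 20.6% and 11.5% of windows. The VIM and FOXQ1 windows hold no match to the wider E-box pattern CANNTG, which contains CAGGTG and CACCTG and occurs in 68.7% of windows. ZEB1 has 7 annotated starts, and 2 of its windows hold CAGGTG or CACCTG, with 3 matches in one of them; the FN1, ZEB2 and TWIST2 windows hold 0. FOXQ1 has 35 CpG dinucleotides, VIM 10 and S100A4 8, against a median of 14 (quartiles 4 and 28). These matches describe letters in the windows and are not measured binding sites.

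The deposited normalized counts came from 35940400 to 39908703 recovered reads per library, in which 1 read was worth 0.934 to 1.05 normalized counts. KAT7 stood at 3616, 3952 and 3554 normalized counts in shCTRL 1, 2 and 3, and at 1008, 872 and 784 in shHBO1 1, 2 and 3. It fell by 2.07 on the log2 scale (SE 0.11, limma adjusted p = 0.00123), to 23.9% of control. An exact two-sided permutation test of KAT7 returned p = 0.1, and no smaller value is possible with 3 libraries a group. Among serous carcinoma markers, 0 of 11 were at 0 in all libraries (summed level 330140 to 379240 in shCTRL, 310000 to 364690 in shHBO1, mostly from keratins and EPCAM), but WT1 was near 0, at 0 to 26.2. Of these 11, 9 lay below 0 in shHBO1 (median log2 difference -0.09), and 0 passed limma. WFDC2 differed by -0.43 (adjusted p 1.00 in limma, 0.0821 in limma with the replicate block, 0.0420 in DESeq2), MSLN by -0.37 and SOX17 by -0.26. Leukocyte markers summed to 713 to 815 and 711 to 814 (0 of 10 at 0), largely CD68, and 0 of 7 tested passed. CD14 had 39.6, 38.4 and 38.8 normalized counts in shCTRL and 16.8, 24.4 and 14.5 in shHBO1 without overlap (-1.06, limma adjusted p 1.00), CSF1R differed by -0.84, also without overlap, and CD8A by 0.32. Groups did not overlap for 2 of 7 leukocyte and 1 of 11 serous markers (WFDC2), beside 8.93% of all tested genes. Fibroblast and endothelial markers summed to 1428 to 2165 and 1535 to 1852 (2 of 11, DCN and PDGFRA, at 0), and 0 of 5 tested passed, with CDH5 at -0.46, KDR at 0.75 and COL1A1 at 0.27. All 5 overlapped between groups. The part of these markers in the results below was not tested. In bulk RNA, a change in the share of cells of a type and a change in RNA per cell cannot be told apart.

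VIM and FOXQ1, chosen for being higher in these same libraries, were each higher in all 3 shHBO1 libraries than in any shCTRL library. The other 8 genes overlapped between groups, and 8.93% of all tested genes did not. Nothing is read from the contrast of the 2 chosen genes with the other 8. FOXQ1 was 1.63 times and VIM 1.41 times the control mean. Among the genes not chosen by value, SNAI1, SNAI2, ZEB1, ZEB2, TWIST1, TWIST2, FN1 and S100A4, 0 of 8 passed the test. The level plot of all 10 genes shows these values by library.

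**Figure D1:**
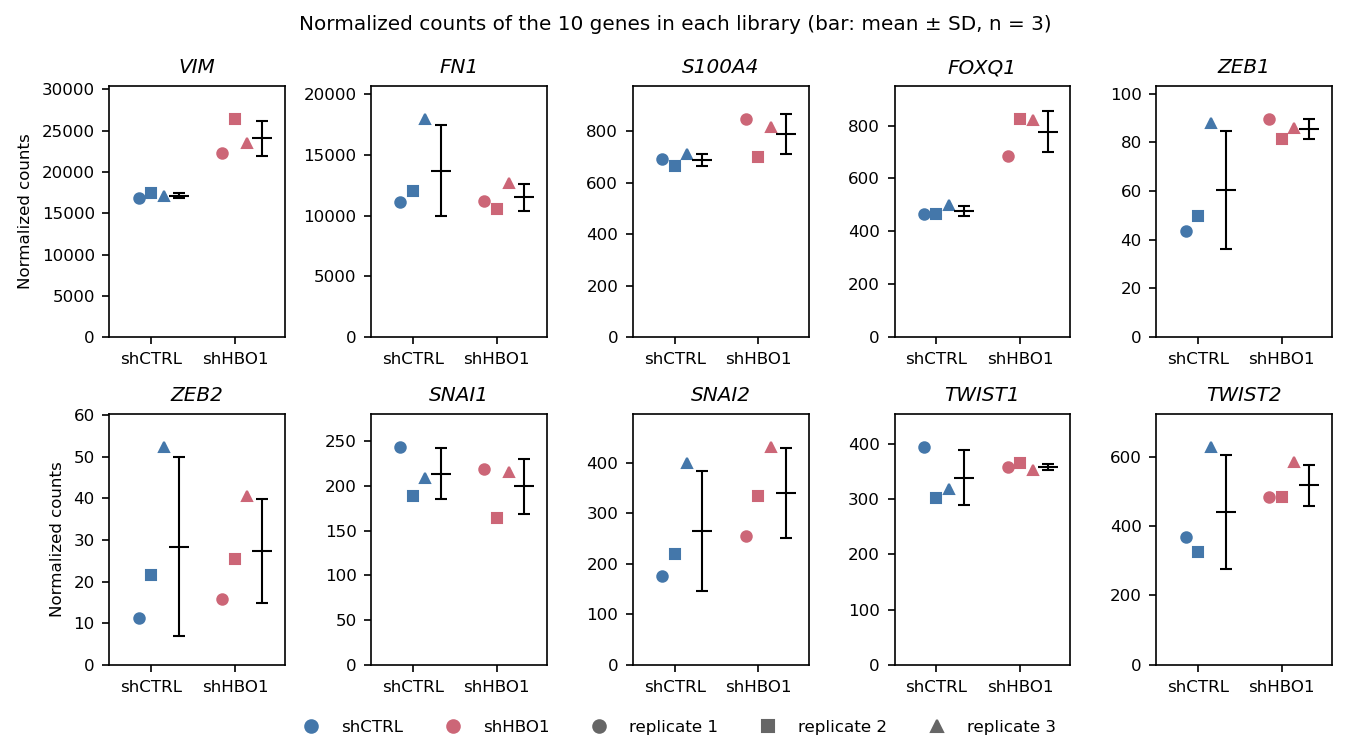
Normalized counts (y axis, linear from 0, a separate scale for each gene) of the 10 genes in the 3 shCTRL (blue) and 3 shHBO1 (red) libraries; symbols give the replicate number, bars the mean ± SD with n = 3. VIM (17105 ± 296 and 24053 ± 2147) and FOXQ1 (476.6 ± 18.7 and 777.6 ± 78.7) do not overlap between groups, but they were chosen for being higher. The other 8 genes overlap.

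FOXQ1 encodes a forkhead transcription factor that promotes EMT in several carcinomas. Its normalized counts were 467.2, 464.5 and 498.1 in shCTRL 1, 2 and 3, and 686.8, 825.8 and 820.2 in shHBO1 1, 2 and 3. The lowest shHBO1 library lay above the highest shCTRL library. The log2 difference was 0.70, and libraries with the same number differed by 1.47, 1.78 and 1.65 times. FOXQ1 has no exon overlapping another gene in GENCODE 29.

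The zinc finger repressors SNAI1 (SNAIL) and SNAI2 (SLUG) gave no call. SNAI1 had 243.8, 188.2 and 208.7 normalized counts in shCTRL and 218.7, 163.9 and 215.2 in shHBO1. Replicate 2 was the lowest library of each group, and the groups overlapped throughout (log2 difference -0.10, SE 0.18, 95% confidence interval -0.52 to 0.31, and from -0.19 without shCTRL 2 to 0.03 without shHBO1 2). SNAI2 had 175.7, 219.1 and 399.6 in shCTRL and 255.1, 335.0 and 432.3 in shHBO1. Each shHBO1 library was above the shCTRL library of its number, by 1.45, 1.53 and 1.08 times, but shCTRL 3 exceeded both shHBO1 1 and 2. The log2 difference of SNAI2 was 0.42 (SE 0.32, interval -0.32 to 1.16); with single libraries left out it ran from 0.17 (without shCTRL 1) to 0.76 (without shCTRL 3).

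The ZEB proteins are large zinc finger and homeodomain repressors held down in epithelial cells by the miR-200 family. ZEB1 had 43.7, 49.6 and 88.1 normalized counts in shCTRL and 89.7, 81.5 and 85.9 in shHBO1. These rested on 43, 53 and 84 recovered reads in shCTRL and 96, 80 and 89 in shHBO1, spread over 40 transcripts. The first and second control libraries lay below every shHBO1 library, and shCTRL 3 lay within the shHBO1 range. The log2 difference of 0.56 (SE 0.29, interval -0.11 to 1.23) became 0.37 without shCTRL 1 and 0.86 without shCTRL 3. ZEB1 exons overlap the antisense gene ZEB1-AS1, which had 216.3 to 264.8 normalized counts, and reads from the overlap cannot be told apart without strand. ZEB2 exons overlap RF01984, RF01987 and ZEB2-AS1 on the opposite strand, the last with 0 reads in all libraries. ZEB2 rested on 11, 23 and 50 recovered reads in shCTRL and 17, 25 and 42 in shHBO1, which were 11.2, 21.5 and 52.4, and 15.9, 25.5 and 40.5 normalized counts. Replicate 3 was the highest library of each group and replicate 1 the lowest. At this depth the ZEB2 difference of 0.11 had an interval from -1.24 to 1.47, its sign changed to -0.053 in edgeR and in DESeq2, and it ran from -0.39 without shCTRL 1 to 0.68 without shCTRL 3.

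TWIST1 and TWIST2 are closely related helix-loop-helix factors of mesoderm development. TWIST1 had 395.1, 301.6 and 318.8 normalized counts in shCTRL and 357.9, 364.5 and 353.2 in shHBO1. The shHBO1 libraries were close together and inside the control range, with a log2 difference of 0.09 (SE 0.14, interval -0.23 to 0.41). Leaving out single libraries moved the TWIST1 difference between 0.01 (without shCTRL 2) and 0.21 (without shCTRL 1). TWIST1 exons overlap AC003986.2 on the opposite strand. TWIST2 had 369.7, 324.0 and 629.2 in shCTRL and 484.0, 482.7 and 585.7 in shHBO1. Here shCTRL 3 was the highest of all 6 libraries, and shCTRL 1 and 2 were the lowest. The log2 difference of TWIST2 was 0.29 (SE 0.24, interval -0.27 to 0.84), and 0.10 without shCTRL 2 to 0.57 without shCTRL 3.

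Vimentin, the intermediate filament protein of mesenchymal cells, had the highest level of the 10 genes per length. VIM had 16844, 17427 and 17043 normalized counts in shCTRL and 22260, 26432 and 23467 in shHBO1. The 3 control libraries lay close together and below every shHBO1 library. The log2 difference was 0.49, and libraries of the same number differed by 1.32, 1.52 and 1.38 times. VIM exons overlap the antisense gene VIM-AS1, at 119.8 to 185.6 normalized counts in shCTRL and 153.2 to 214.9 in shHBO1, and AL133415.1. S100A4, a calcium-binding protein also called fibroblast-specific protein, had 691.7, 664.9 and 713.1 normalized counts in shCTRL and 849.4, 701.6 and 818.3 in shHBO1. Only shHBO1 2 fell inside the S100A4 control range, and the log2 difference of 0.19 (SE 0.11, interval -0.06 to 0.44) did not pass.

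FN1 encodes fibronectin, a matrix glycoprotein whose EDA and EDB exons are skipped in the plasma form and often included in embryonic and tumour tissue. FN1 had 11084, 12034 and 17956 normalized counts in shCTRL and 11213, 10574 and 12682 in shHBO1. Replicate 3 of shCTRL stood above the other 5 libraries, and the log2 difference of -0.22 (SE 0.17, interval -0.63 to 0.18) became -0.01 without it and -0.36 without shCTRL 1. The alternative exons, which tell the FN1 transcripts apart, lie on the minus strand at chr2:215380811-215381080 (EDA) and chr2:215392931-215393203 (EDB) of GRCh38 in GENCODE 29. Their sequences carry no capitals because no base is singled out.
EDA exon: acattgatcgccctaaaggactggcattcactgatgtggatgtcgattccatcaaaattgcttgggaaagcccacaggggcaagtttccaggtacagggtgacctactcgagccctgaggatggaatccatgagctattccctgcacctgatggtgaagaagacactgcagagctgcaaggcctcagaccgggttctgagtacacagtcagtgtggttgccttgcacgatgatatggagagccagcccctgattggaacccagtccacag
EDB exon: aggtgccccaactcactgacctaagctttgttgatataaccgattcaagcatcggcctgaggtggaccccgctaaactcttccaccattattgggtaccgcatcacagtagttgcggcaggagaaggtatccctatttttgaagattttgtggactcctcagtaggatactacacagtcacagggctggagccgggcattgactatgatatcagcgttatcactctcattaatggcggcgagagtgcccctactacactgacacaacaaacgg
Of 10 deposited FN1 transcripts, the 4 with EDA held 70.6, 79.1 and 76.1% of FN1 counts in shCTRL and 75.0, 77.1 and 78.3% in shHBO1. The 3 with EDB held 13.9, 18.5 and 19.7%, and 17.9, 24.9 and 20.5%. Both shares overlapped between groups (EDA 75.3 ± 4.33 and 76.8 ± 1.64%; EDB 17.3 ± 3.05 and 21.1 ± 3.54%, SD, n = 3). These are shares of the counts the authors assigned to transcripts, not counts of reads over each exon.

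Read against all tested genes, 0 of 8 is near the background of the comparison. In limma without a block, 0.00659% of genes passed, which is KAT7 alone, and the adjusted p was 1.00 for each of the 8 genes. At an unadjusted p under 0.05, 0 of 8 passed, beside 3.55% of all genes. In edgeR 0 of 8 passed (all genes 0.00659%), and in DESeq2 0 of 8 (all genes 0.125%); neither gave any of the 8 an unadjusted p under 0.05. With the replicate number as a block, 0 of 8 passed limma, against 0.125% of all genes. The unadjusted p in that fit was under 0.05 for FN1 and SNAI2. The share of all genes at that unadjusted p was not counted with the block, so nothing is read from these names. Groups did not overlap for 0 of 8, against 8.93% of all genes in either direction. VIM and FOXQ1 were chosen for being higher, so nothing is read from their place outside the overlap.

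**Figure D2:**
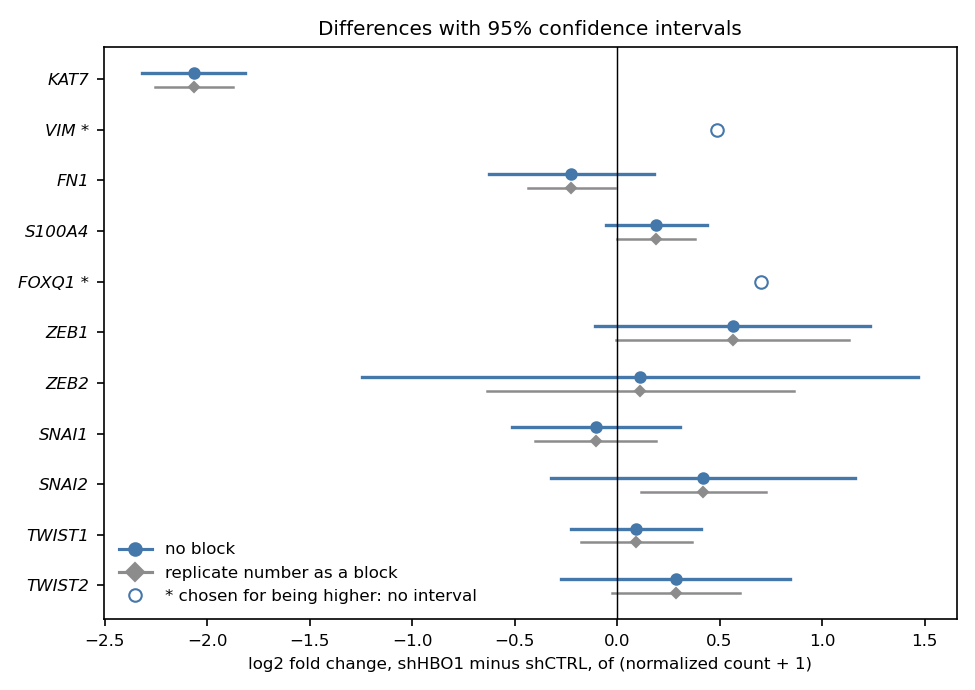
Difference between shHBO1 and shCTRL on the log2(normalized count + 1) scale (x axis) for KAT7 and the 10 genes; bars are 95% confidence intervals from limma without (blue) and with (grey) the replicate number as a block, and open circles for VIM (0.49) and FOXQ1 (0.70) have none because they were chosen for being higher. KAT7 stands at -2.07, and all intervals of the other 8 genes without a block include 0.

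Levels per length spanned a wide range in these cells. Each gene's counts, summed over its transcripts, were divided by the length of its most abundant transcript. In shCTRL, normalized counts per kb were 8012 ± 139 for VIM, 1623 ± 441 for FN1 and 1150 ± 40.2 for S100A4 (SD, n = 3). VIM stood at the 97.7 percentile of 14459 genes with a length, FN1 at 86.1 and S100A4 at 81.0. The transcription factors followed with 314 ± 117 for TWIST2, 206 ± 8.09 for FOXQ1, 203 ± 29.9 for TWIST1, 132 ± 59.1 for SNAI2 and 127 ± 16.7 for SNAI1. ZEB1, at 10.1 ± 4.02, and ZEB2, at 2.97 ± 2.25, were at the 6.77 and 0.982 percentiles. The length used for ZEB1 came from a transcript that held 1.89 to 41.9% of its counts, so its level per kb is uncertain. In shCTRL, the neighbours FOXQ1 and TWIST1, TWIST1 and SNAI2, and SNAI2 and SNAI1 overlapped in range; all other neighbours in the order did not. In shHBO1, FOXQ1 was at 337 ± 34.1 counts per kb and overlapped TWIST2 at 369 ± 42.1.

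**Figure D3:**
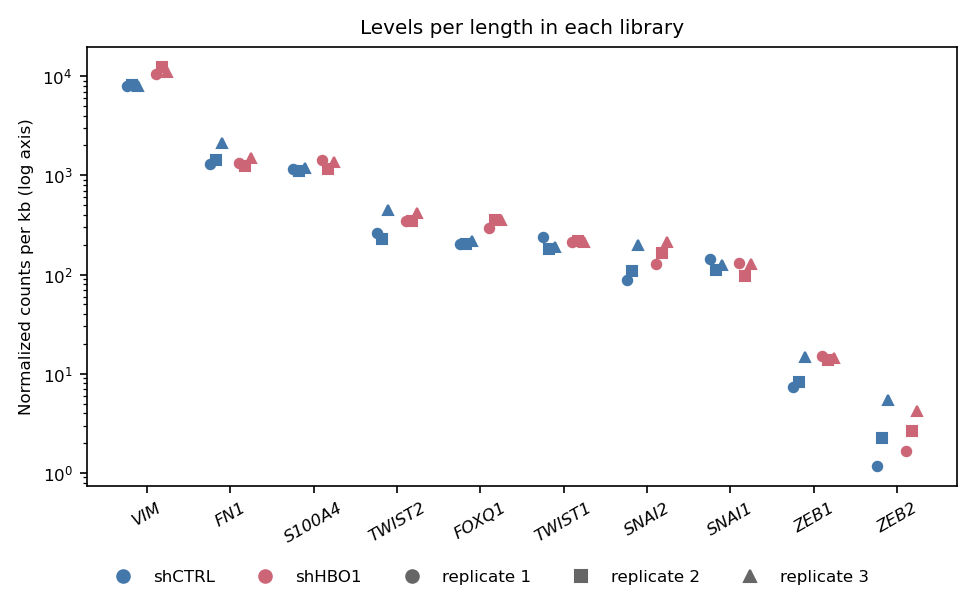
Normalized counts of each gene per kb of its most abundant transcript (log axis) in the 3 shCTRL (blue) and 3 shHBO1 (red) libraries. Counts were summed over the transcripts of each of the 10 genes, which are ordered by the shCTRL mean. VIM lies highest, at 8012 in shCTRL, and ZEB2 lowest, at 2.97.

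The replicate numbers were compared over both groups for all 10 genes, a comparison that does not use the difference between shHBO1 and shCTRL. It was run because deviations from the group means correlated by number in these same libraries. VIM and FOXQ1 were chosen on these libraries too. A choice that favours a small spread within groups would favour no call here, so nothing is read from their results. SNAI2 passed the F test of the number in the fit with group and number (limma adjusted p = 0.0233), and its number 3 libraries were 0.97 above number 1 on the log2 scale. ZEB2 (1.72), TWIST2 (0.52) and FN1 (0.44) were also highest in the number 3 libraries, with limma adjusted p of 0.0633, 0.0774 and 0.0602. VIM differed by 0.05 between numbers 3 and 1, FOXQ1 by 0.17 and SNAI1 by -0.12, and these 3 did not pass. In all, 1 of 10 genes passed, against 9.68% of the 15173 tested genes.

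**Figure D4:**
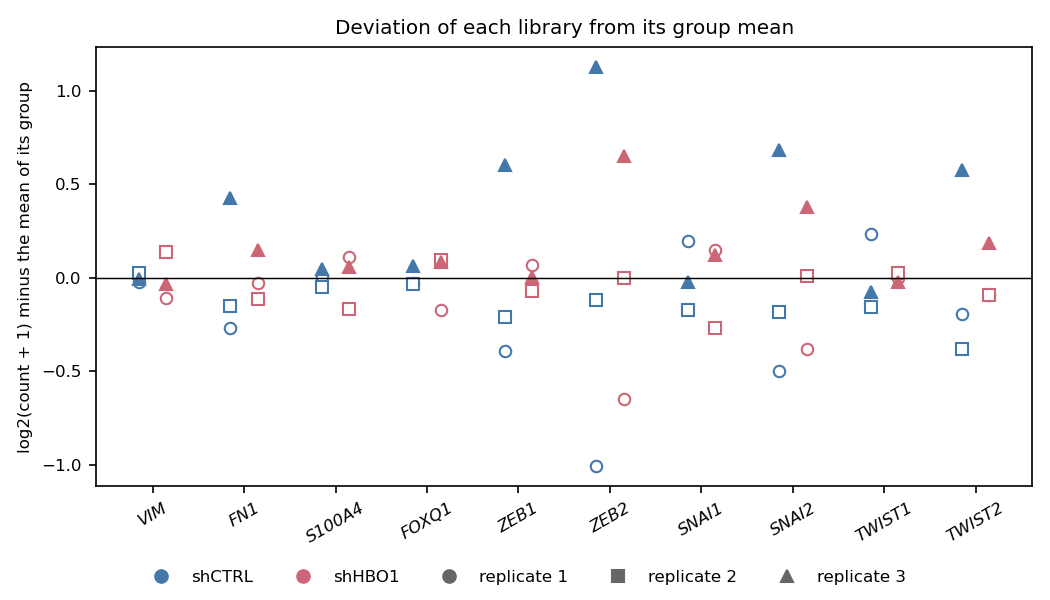
Deviation of each library from its group mean on the log2 scale (y axis, normalized count + 1) for the 10 genes (x axis); filled symbols are the libraries numbered 3 and open symbols those numbered 1 and 2, in blue for shCTRL and red for shHBO1. SNAI2 and ZEB2 have both filled symbols above 0 and their replicate 1 symbols below, with number 3 above number 1 by 0.97 and 1.72.

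The libraries numbered 3 also stood apart in other genes, named here after their values were seen. Over all tested genes, 735 of the genes that passed between the numbers were higher and 734 lower in number 3 than in number 1. In the 10 lists of pathway genes described below, 53 of 223 genes passed (23.8%), beside 9.68% of all tested genes. In lists outside this count, 3 of 11 serous carcinoma markers and 3 of 8 nuclear-retained and structural RNAs passed. Fibroblast and endothelial markers had 0 of 5 and leukocyte markers 0 of 7. A high share was thus not particular to the pathway lists. Of 30 tested genes listed as mesenchymal surface and matrix effectors, 14 passed between the numbers, 13 of them higher in number 3 than in number 1. They included the cadherin CDH11 (1.32 on the log2 scale) and the actin-binding protein TAGLN (1.19), while the collagen gene COL1A2 was the exception at -0.84. Of 34 epithelial genes repressed by ZEB and SNAIL factors, 7 passed and all 7 were lower in number 3, with the epithelial transcription factor ELF3 at -1.69 and the claudins CLDN4 and CLDN3 at -1.01 and -0.96. Of 22 genes of TGF-beta input to EMT, 9 passed, 8 of them higher. Of 18 S100 and annexin genes, 6 passed, 5 of them lower, and of 19 regulators of SNAIL, SLUG, TWIST and ZEB stability 0 passed. The other lists, of 17 to 27 tested genes, had 3 to 5 past the test, in both directions. Nuclear-retained and structural RNAs summed to 14453 in shCTRL 3 and 18847 in shHBO1 3. The other libraries of each group had 22854 to 25984 and 23216 to 27619. NEAT1 held much of this sum, at 16964, 14697 and 7854 in shCTRL and 18788, 15482 and 11622 in shHBO1. The median difference of the listed RNAs, number 3 minus number 1, was 0.44, so the lower sum does not describe the typical RNA. The part of these RNAs in the differences between numbers was not tested.

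Other genes of the pathway were counted in 10 lists with 223 distinct tested genes, the 10 genes above left out. Between shHBO1 and shCTRL, 0 of 223 passed limma, and 10 (4.48%) had an unadjusted p under 0.05, beside 3.55% of all tested genes. In edgeR and DESeq2 0 passed, and with the replicate block 1 did, beside 0.125% of all tested genes. That gene was MMP2, a matrix metalloprotease, with 7393 ± 1367 normalized counts in shCTRL and 11064 ± 2167 in shHBO1 (log2 difference 0.58, limma adjusted p = 0.0284 with the block and 1.00 without). It was also higher in the number 3 libraries, by 0.47.

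Among transcription factors of EMT, 15 of 17 lay above 0, with a median log2 difference of 0.13 beside 0.00013 over all tested genes, and 0 passed. By the naming rule (the 3 smallest p in each list), TCF4, an E-protein partner of TWIST, differed by 0.38, the forkhead factor FOXC1 by 0.38 and the homeobox gene PRRX2 by -0.51. Of 21 corepressors and cofactors of ZEB, SNAIL and TWIST, 9 lay above and 12 below 0 (median -0.02), with the CoREST subunit RCOR1 at 0.22, the arginine methyltransferase PRMT1 at -0.17 and the demethylase KDM1A at -0.16. Of 19 regulators of SNAIL, SLUG, TWIST and ZEB stability, 13 lay above 0 (median 0.02), and the kinases GSK3B and CSNK1A1 and the signalosome subunit COPS2 differed by 0.15, 0.13 and 0.16. TGF-beta genes had 15 of 22 above 0 (median 0.04), with the SMAD corepressor SKIL at 0.30, the receptor TGFBR1 at 0.20 and the ubiquitin ligase SMURF1 at 0.12. No gene of these lists passed.

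Epithelial genes repressed by ZEB and SNAIL had 13 above and 21 below 0 (median -0.05, 0 of 34 passing). The membrane protease ST14 differed by -0.17, the transcription factor GRHL2 by -0.28 and CLDN3 by -0.50. CDH1, the E-cadherin gene chosen after its values were seen, had 1997, 2133 and 1518 normalized counts in shCTRL and 1830, 2010 and 1775 in shHBO1, overlapping ranges. Genes listed as mesenchymal surface and matrix effectors had 20 of 30 above 0 (median 0.09). MMP2, the collagen crosslinking enzyme LOX (0.28) and the integrin ITGB6 (0.26) were named. Not every listed gene is particular to mesenchymal cells, and ITGB6 is not. Intermediate filaments and vimentin partners had 12 of 21 above 0 (median 0.02), with GFAP at -0.97 from a mean of 19.4 counts, the kinase ROCK2 at 0.23 and the crosslinker MACF1 at 0.20.

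S100 and annexin genes had 9 of 18 above 0 (median -0.03), with S100A6 at 0.19, S100A9 at -0.49 and S100A1 at -0.24. Forkhead factors had 15 of 27 above 0 (median 0.04), with FOXJ3 at 0.20, FOXC1 at 0.38 and FOXP2 at -0.87, the last from a mean of 19.0 counts in shCTRL. RNA-binding regulators of FN1 and ZEB transcripts had 12 of 17 above 0 (median 0.04), with the splicing factors MBNL1 at 0.20 and RBFOX2 at 0.14 and the mRNA-binding IGF2BP1 at 0.13. In each of these 3 lists 0 genes passed.

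**Figure D5:**
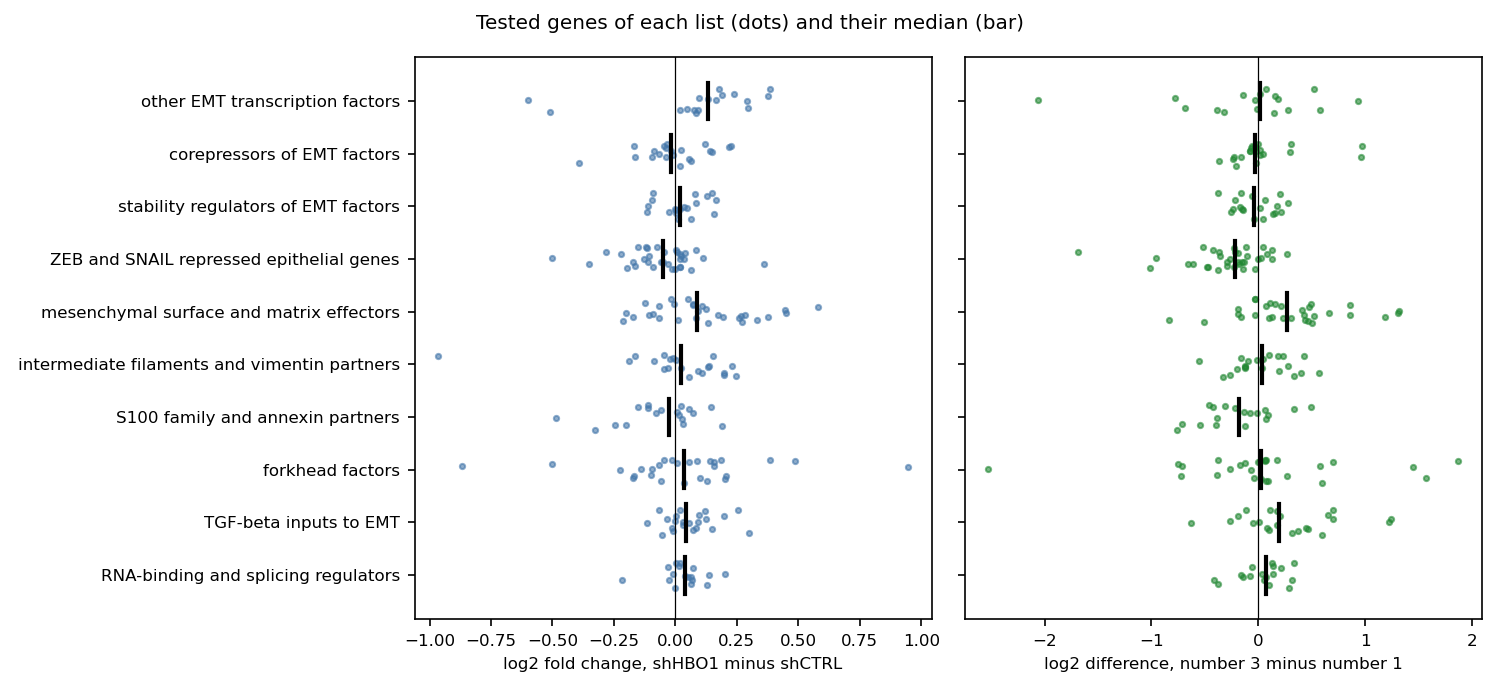
Log2 difference between shHBO1 and shCTRL (x axis) of each tested gene in the pathway lists (left), and log2 difference between libraries numbered 3 and 1 (right), with a bar at each list's median. On the left, medians run from -0.05 for epithelial genes to 0.13 for EMT transcription factors, and 0 genes passed limma without a block.

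The genes whose profile over the 6 libraries was most like that of VIM or FOXQ1 were ranked by the root mean square difference of centred log2 values, among 12211 genes with a mean of at least 100. Nearest to VIM was VEPH1 (0.067), with 557.6, 629.3 and 647.1 normalized counts in shCTRL and 800.8, 887.9 and 820.2 in shHBO1, followed by GPM6B (0.072) and SIRPB1 (0.075). Nearest to FOXQ1 were MBNL1-AS1 (0.109), MANCR (0.118) and FAM43A (0.124), and FAM43A had 707.9, 728.6 and 722.6 in shCTRL and 1190, 1088 and 1321 in shHBO1. These genes were picked by their likeness, which includes the group difference, and their values are a description.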

How the data were processed

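RNA-seq of 6 UWB1.289 libraries was deposited by the authors as 1 table of normalized signal per RefSeq transcript. Bowtie 1.2.1.1, SAMtools, DESeq2 and hg19 are named without roles, per the submitters' processing notes. Every deposited value was a whole number of reads times 1 factor per library: whole reads were recovered for 100% of values at a tolerance of 0.01 read, 35940400 to 39908703 per library. Of 58215 transcripts, 57191 were named by RefSeq GRCh38.p14 and 646 by GENCODE 29; 378 unnamed ones (0.0920 to 0.0977% of reads) were left out. Transcripts were summed per gene. A read counted for several transcripts would enter such a sum more than once.

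Genes with a mean of at least 10 were tested with limma 3.58.1 (R 4.3.3) on log2(normalized count + 1), a scale that understates changes of low genes, with Benjamini-Hochberg adjustment over all 15173 genes and a threshold of 0.05. edgeR 4.0.16 and DESeq2 1.42.0 were run on the recovered reads. The models were tested on simulated data. The 10 genes and the lists were chosen with earlier results of these data known. The naming rule took KAT7, the 10 genes, the 3 smallest p in each list and the 3 nearest profiles to VIM and to FOXQ1. Deviations from the group means correlated at 0.32, 0.19 and 0.48 between libraries numbered 1, 2 and 3; all exceeded 0.1, so the numbers were treated as pairing libraries, without any shared day or batch in the labels, and shCTRL 2 correlated slightly better with shHBO1 1 (0.21). Alternatives covered the replicate block, pseudocount, filter, scaling, count model, transcript choice and each library left out; leaving out both libraries numbered 3, and count models with the block, were added after the data were seen.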

Additional observations from a re-analysis of the deposited data

How the results depend on the processing

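The count of genes past the threshold was 1 without a block and rose to 19 with the replicate number as a block (the replicate block), to 19 in DESeq2, to 19 in edgeR with the replicate block and to 148 in DESeq2 with the replicate block; the cause was not tested. Among the 8 genes not chosen by value, 0 passed in any alternative run, block included. An unadjusted p under 0.05 was reached by ZEB1, SNAI2 and TWIST2 without shCTRL 3 and without both libraries numbered 3. S100A4 reached it without shHBO1 2. The share of all genes at that unadjusted p was not counted in these runs, so nothing is read from these names. ZEB2 changed sign to -0.053 in edgeR, -0.053 in DESeq2 and -0.059 for the most abundant transcript, and ran from -0.39 to 0.68 when single libraries were left out. ZEB2 was -0.21 without shHBO1 3, and SNAI1 ran from -0.19 to 0.030 when single libraries were left out (0.030 without shHBO1 2). The other 6 kept their direction in the alternatives run, with SNAI2 from 0.17 to 0.76, TWIST2 from 0.10 to 0.57, TWIST1 from 0.01 to 0.21, FN1 from -0.36 to -0.01, S100A4 from 0.14 to 0.27 and ZEB1 from 0.37 to 1.33 (its most abundant transcript). That ZEB1 transcript had only 18.3, 0.937 and 4.19 normalized counts in shCTRL and 4.67, 18.3 and 27.0 in shHBO1, with overlapping groups. VIM ran from 0.42 to 0.54 and FOXQ1 from 0.65 to 0.79; their sign was fixed by how they were chosen. ZEB1 rested on 43 to 96 and ZEB2 on 11 to 50 reads per library, and the precision of all 10 is limited by 3 libraries a group.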
